A study of Mus musculus with 2 samples.

Results

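The Krüppel-like factors (KLFs) described here are 7 of the 31053 genes listed in each of 2 single-cell count matrices of mouse lung dendritic cells: Klf2, Klf3, Klf4, Klf6, Klf7, Klf10 and Klf13. They were taken by gene symbol from a list of names, with no threshold on their values, and each symbol matched 1 row in both matrices. All 7 reached 10 unique molecular identifiers (UMIs, each counting 1 captured RNA molecule) per 1000000 UMIs of a library (CPM) in both libraries, the level at which a gene was treated as measured. In the annotation of mouse build GRCm38 (mm10) the 7 genes lie on 7 different chromosomes. Klf2 (ENSMUSG00000055148) lies at chr8:72319033-72321656 on the + strand, Klf3 (ENSMUSG00000029178) at chr5:64803388-64832901 on the + strand and Klf4 (ENSMUSG00000003032) at chr4:55527143-55532466 on the - strand. Klf6 (ENSMUSG00000000078) lies at chr13:5861482-5870394 on the + strand and Klf7 (ENSMUSG00000025959) at chr1:64029447-64122282 on the - strand. Klf10 (ENSMUSG00000037465) lies at chr15:38291463-38300706 and Klf13 (ENSMUSG00000052040) at chr7:63886351-63938915, both on the - strand.

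Dendritic cells take up antigen and show it to T cells, and conventional dendritic cells (cDCs) come as 2 kinds, cDC1 and cDC2. Lungs of C57BL/6 mice, 8 to 10 weeks old, were digested with dispase, and the cells were sorted into XCR1+ cells (the cDC1 library) and CD172a+ cells (the cDC2 library; CD172a is the product of Sirpa). Neither library carries a genotype or treatment contrast, both share tissue, strain, age range and digestion, and each was made with the Chromium v3.1 kit. Each sort is represented by 1 library, how many mice went into it is not stated in the labels, and sort and library cannot be told apart. No p-value is therefore given. Intervals in parentheses are exact 95% intervals that cover counting error only, and a difference is singled out where it reached 2-fold.

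KLFs are zinc finger transcription factors that bind GC-rich and CACCC-type DNA through 3 fingers at the end of the protein, while the rest of the protein differs between members and recruits coactivators or corepressors. KLF2 is known for quiescence and trafficking in lymphocytes and endothelium, KLF4 for monocyte and macrophage development and for cDC2 that drive type 2 responses, and KLF6 for inflammatory gene expression in macrophages. KLF3 acts with the corepressor CtBP, KLF10 is an early target of TGF-beta signalling, and KLF10 and KLF13 both bind the corepressor SIN3A.

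The coding DNA of the last finger is shown because this domain is what the 7 genes share and because reads of near-identical copies could be exchanged between members. Each stretch runs 63 bases from the first cysteine codon to the last histidine codon in the GENCODE vM21 transcript, and capitals mark the 4 codons of the residues that hold the zinc.
Klf2: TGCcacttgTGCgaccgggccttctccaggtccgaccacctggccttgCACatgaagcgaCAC
Klf3: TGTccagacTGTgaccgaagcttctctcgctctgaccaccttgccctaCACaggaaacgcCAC
Klf4: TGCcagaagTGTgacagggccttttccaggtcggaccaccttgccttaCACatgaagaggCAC
Klf6: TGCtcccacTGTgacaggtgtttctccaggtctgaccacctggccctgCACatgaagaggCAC
Klf7: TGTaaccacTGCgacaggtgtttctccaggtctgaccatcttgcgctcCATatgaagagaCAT
Klf10: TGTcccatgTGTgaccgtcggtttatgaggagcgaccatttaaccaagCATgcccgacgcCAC
Klf13: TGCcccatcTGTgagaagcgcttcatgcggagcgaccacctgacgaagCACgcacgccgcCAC
The whole finger region spanned 243 bases in all 7 members. Between the 21 pairs of members the identity of these bases ran from 59.3% to 81.1%, with a median of 67.9%. Klf6 and Klf7 were the most alike at 81.1%, and Klf2 and Klf4 shared 78.2%. The coding sequence ended 3 bases after the last finger in Klf2, Klf4, Klf6 and Klf7, 9 bases after it in Klf3, 87 in Klf10 and 117 in Klf13, leaving out the stop codon. In the last 500 bases of the transcripts, the end at which 3' libraries are read, the longest run shared by any pair was 12 bases (Klf10 and Klf13).

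The stretch before the start is shown for Klf2, Klf4 and Klf6, the 3 members of highest level in both libraries. Sequences are those of RefSeq (GRCm38.p6), which matched 6 of the 7 members; Klf10 had no entry. Capitals mark matches to the KLF box CCNCNCCCN on either strand and, in Klf2, the match to the MEF2 motif. The Klf2 stretch is chr8:72318812-72319032 on the + strand, the Klf4 stretch chr4:55532476-55532725 on the - strand and the Klf6 stretch chr13:5861239-5861481 on the + strand.
Klf2: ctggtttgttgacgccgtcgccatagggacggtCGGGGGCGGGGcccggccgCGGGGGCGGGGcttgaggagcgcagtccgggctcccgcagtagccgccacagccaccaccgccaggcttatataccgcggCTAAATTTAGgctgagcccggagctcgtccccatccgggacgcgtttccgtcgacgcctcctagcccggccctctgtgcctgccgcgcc
Klf4: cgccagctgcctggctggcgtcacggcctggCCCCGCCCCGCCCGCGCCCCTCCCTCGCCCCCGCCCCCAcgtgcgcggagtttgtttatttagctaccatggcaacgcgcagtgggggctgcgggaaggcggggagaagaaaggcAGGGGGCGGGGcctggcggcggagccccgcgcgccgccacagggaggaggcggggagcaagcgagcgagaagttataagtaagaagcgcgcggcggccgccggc
Klf6: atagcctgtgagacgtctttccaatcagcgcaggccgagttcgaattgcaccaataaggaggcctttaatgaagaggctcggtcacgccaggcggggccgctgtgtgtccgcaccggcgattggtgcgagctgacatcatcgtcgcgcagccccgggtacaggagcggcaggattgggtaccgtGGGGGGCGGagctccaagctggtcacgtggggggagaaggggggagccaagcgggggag
These stretches held 4 KLF boxes in Klf2, 9 in Klf4 and 1 in Klf6, counting overlapping matches. In windows of 300 bases around the RefSeq start, all 6 members with an entry held at least 1 KLF box, as did 49.1% of 27025 mouse promoter windows of that length. The GC box GGGGCGGGG, which overlaps the KLF box of the opposite strand, was found in Klf2, Klf3, Klf4 and Klf13 and in 11.6% of all windows. The MEF2 motif was found in Klf2 alone of the 6, beginning 118 bases before the start that RefSeq gives, which lies downstream of the annotated start at which the printed stretch ends, and in 153 windows, or 0.566% of all. A match describes letters and is neither a binding site nor a cause.

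The filter kept 2574 cells with 35071861 UMIs in the cDC1 library and 2835 cells with 38613693 UMIs in the cDC2 library, with medians of 12866 and 12655 UMIs a cell. The 2 libraries shared 5 barcodes among the kept cells. Cells were assigned to gates by counting detected markers of fixed lists. The cDC1 library held 2104 resting cDC1 (81.7%), 259 cycling and 99 mature cells, and the cDC2 library held 1902 resting cDC2 (67.1%), 309 cycling, 68 mature, 135 macrophage-like, 167 Cd7 Plac8 and 40 nonclassical monocyte-like cells. In the whole libraries Xcr1 was at 248 CPM in cDC1 and 4.84 CPM in cDC2, and Sirpa at 5.62 and 123 CPM. In resting cells Xcr1 was at 264 CPM in cDC1 and 3.43 in cDC2, and Sirpa at 0.701 and 119 CPM. Both genes are among the markers that set the gates, so their direction in resting cells follows from the choice of cells. The 11 macrophage and monocyte markers summed to 67.3 CPM in the whole cDC1 library and 915 CPM in the whole cDC2 library.

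In the whole libraries Klf6 was the most abundant member and Klf7 the only one 2-fold apart. Klf6 was at 823 CPM in the cDC1 and 687 CPM in the cDC2 library. Klf4 was at 258 and 201 CPM and Klf2 at 176 and 115 CPM in the same order. Klf6, Klf4 and Klf2 were thus the first 3 members by level in both libraries, all with lower values in the cDC2 library. Klf13 was at 63.9 and 72.6 CPM, Klf3 at 54.3 and 57.1 CPM, and Klf10 at 20.5 and 22.3 CPM. Klf7, a member best known from neurons and adipose tissue, was at 21.5 CPM (20.02 to 23.1) in the cDC1 library and 55.2 CPM (52.8 to 57.6) in the cDC2 library, 2.56-fold higher (2.36 to 2.79). The part of transcript length and of capture in the differences of level between members was not tested.

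Of the 7 members, 1 was 2-fold or more higher in the cDC2 library and 0 were lower; of all 6610 genes measured in either library 7.79% were higher and 5.51% lower. The median log2 ratio was 0.07 over the members and 0.05 over all measured genes. Klf2 was 1.54-fold lower in the cDC2 library (1.48 to 1.60), Klf4 1.28-fold lower (1.24 to 1.32) and Klf6 1.20-fold lower (1.18 to 1.22). The other 3 members differed by less, Klf13 by 1.14-fold. Gates other than the resting, cycling and mature ones gave part of these sums: resting cDC2 supplied 64.3% of the UMIs of the cDC2 library but 44.4% of its Klf2 UMIs, while the Cd7 Plac8 gate supplied 5.02% and 10.7%, and the nonclassical monocyte-like gate 1.17% and 7.36%. Restricted to resting cells of either kind, cycling and mature cells, Klf2 was 1.98-fold lower in cDC2 (1.90 to 2.07) and Klf7 2.65-fold higher (2.43 to 2.90), and 1 of 7 members was 2-fold apart beside 7.43% of genes higher and 6.01% lower. Without the 34 resting cells of the cDC2 gate in the cDC1 library and the 40 of the cDC1 gate in the cDC2 library, Klf2 was 2.08-fold lower (84.6 against 176 CPM, 1.98 to 2.17) and Klf7 2.72-fold higher (2.49 to 2.97). Then 2 of 7 members were 2-fold apart, beside 7.57% of genes higher and 6.32% lower, with Klf2 on the other side of 2-fold. Both restrictions were chosen after seeing the data.

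**Figure D1:**
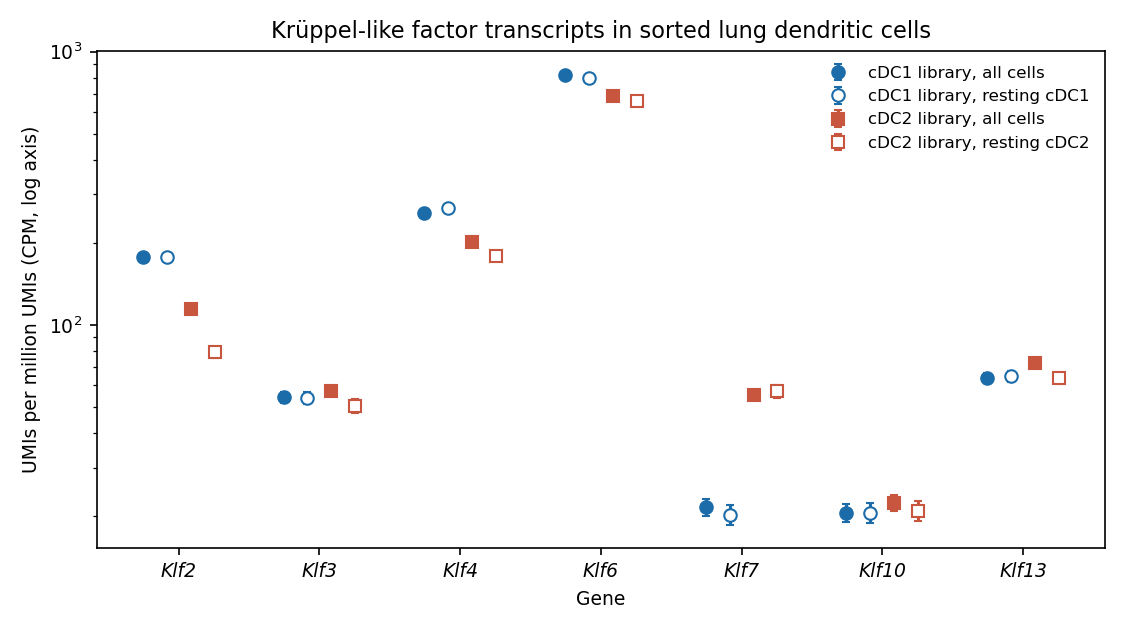
Level of each member in CPM (log axis) in all cells and in resting cells of each library, with bars for exact 95% Poisson intervals. Klf7 stands higher in the cDC2 library, and the resting values of Klf2 lie further apart (177 and 79.2 CPM) than those of all cells (176 and 115 CPM).

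Among resting cells 2 members were 2-fold apart, in opposite directions. Klf2 was at 177 CPM (172 to 182) in resting cDC1 and 79.2 CPM (75.8 to 82.8) in resting cDC2, 2.23-fold higher in cDC1 (2.12 to 2.35). Klf7 was at 20.1 CPM (18.5 to 21.9) in resting cDC1 and 57.0 CPM (54.1 to 60.1) in resting cDC2, 2.84-fold higher in cDC2 (2.57 to 3.14). The intervals of both genes were far apart. The resting gates were not matched for the migration receptor gene Ccr7, at 59.1 CPM in resting cDC1 and 719 CPM in resting cDC2. Its part in these differences was not tested. One of 7 members was thus higher and 1 lower in resting cDC2, beside 8.48% and 6.94% of the 6356 genes measured. Klf4 was 1.51-fold higher in resting cDC1 (268 against 178 CPM, 1.45 to 1.56) and Klf6 1.21-fold higher (798 against 662 CPM). The remaining members lay within 1.1-fold: Klf3 at 53.8 and 50.5 CPM, Klf10 at 20.4 and 20.8 CPM and Klf13 at 64.8 and 63.6 CPM. The median log2 ratio of the members was -0.09, and that of all measured genes -0.00396.

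The Klf2 difference was smaller among resting cells with 0 Hspa1a UMIs. The 9 heat shock genes summed to 5532 CPM in resting cDC1 and 4396 CPM in resting cDC2, with Hspa1a at 589 and 130 CPM. Among cells with 0 Hspa1a UMIs, 1189 resting cDC1 and 1494 resting cDC2, Klf2 was at 134 and 76.0 CPM, 1.77-fold higher in cDC1 (1.65 to 1.89) and short of 2-fold. Klf7 in those cells was at 20.4 and 59.4 CPM, 2.91-fold higher in cDC2. The 9 heat shock genes still summed to 4106 CPM in those cDC1 and 4078 CPM in those cDC2. There 1 of 7 members was 2-fold apart, beside 8.56% of genes higher and 6.84% lower. This comparison was added after the data had been seen, and the part of heat shock in the Klf2 difference was not tested.

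A few cells of the other kind in each sort allow the same comparison within 1 library. In the cDC1 library, 34 cells fell into the cDC2 gate, with Sirpa at 117 and Xcr1 at 5.83 CPM, both among the markers that set the gates. In these cells Klf7 was at 38.8 CPM from 20 UMIs, 1.93-fold above the resting cDC1 beside them (1.17 to 3.01), and Klf2 was at 46.6 CPM, 3.80-fold below them (2.55 to 5.93). Klf4, at 105 CPM, was 2.56-fold below (1.96 to 3.41). So 2 of 7 members were 2-fold lower and 0 higher in those 34 cells, beside 14.6% and 12% of genes. These cells also had Ccr7 at 1591 CPM, against 719 CPM in resting cells of the cDC2 library.

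In the cDC2 library, 40 cells fell into the cDC1 gate, with Xcr1 at 115 and Sirpa at 2.02 CPM, again among the markers that set the gates. Their Klf2 was at 283 CPM, 3.57-fold above resting cDC2 of the same library (2.98 to 4.24), and their Klf7 at 10.1 CPM from 5 UMIs, 5.65-fold below (2.42 to 17.4). One member was higher and 1 lower, beside 19.3% and 10.3% of genes. Klf4 was at 176 CPM, close to the 178 CPM of resting cDC2, and Klf6 at 444 CPM was 1.49-fold below it. These 40 cells differed from the cDC1 of the other library in having Plac8 at 708 CPM against 25.1. In both libraries, then, cells gated as cDC1 had the higher Klf2 and the lower Klf7. The kind of cell cannot be told apart here from the Ccr7 and Plac8 differences of these few cells. Klf4 was lower in cDC2-gated than in cDC1-gated cells of the cDC1 library and level between them in the cDC2 library. Cells of 1 gate set against each other across the libraries had 0 of 7 members 2-fold apart, beside 12.1% of genes higher and 5.23% lower for the cDC1 gate and 4.02% and 6.97% for the cDC2 gate. For the cDC1 gate Klf7 nevertheless came close to 2-fold, 1.99-fold lower in the cDC2 library from 5 UMIs, with Klf6 1.80-fold and Klf4 1.53-fold lower and Klf2 1.60-fold higher. For the cDC2 gate Klf2 and Klf4 were each 1.70-fold lower in the cDC1 library.

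Maturation was read within each library, setting the mature gate, which carries Ccr7 and Fscn1, against resting cells. Klf6 was the member with the largest added level: in cDC1 it was at 1475 CPM in mature and 798 CPM in resting cells, 1.85-fold higher (1.76 to 1.93), and in cDC2 at 1149 and 662 CPM, 1.74-fold higher (1.62 to 1.85). Neither reached 2-fold. Klf10 went the other way in both libraries. It was at 3.65 CPM in mature cDC1, from 5 UMIs, against 20.4 CPM in resting cDC1, 5.59-fold lower (2.38 to 17.3). In mature cDC2 it was at 8.32 CPM, from 7 UMIs, against 20.8 CPM, 2.51-fold lower (1.21 to 6.26).

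For Klf2, Klf4 and Klf7 the ratio of mature to resting cells was not alike in the 2 libraries, and those differences between libraries were not tested. Klf2 was at 176 CPM in mature and 79.2 CPM in resting cDC2, 2.22-fold higher (1.86 to 2.62), and at 185 and 177 CPM in cDC1, 1.04-fold higher (0.916 to 1.18). Mature cells of the 2 kinds thus had like Klf2 levels, with a ratio of 0.952 (0.772 to 1.17). Klf4 was 1.80-fold lower in mature cDC1 (149 against 268 CPM, 1.57 to 2.08) and 1.19-fold higher in mature cDC2 (213 against 178 CPM, 1.02 to 1.39). Klf7 was at 8.76 CPM in mature cDC1, from 12 UMIs, 2.297-fold below resting cells (1.30 to 4.47), and at 48.7 CPM in mature cDC2, 1.17-fold below (0.859 to 1.64). Between the mature gates Klf7 was 5.56-fold higher in cDC2 (2.87 to 11.6) and Klf6 1.28-fold lower, with 1 of 6 measured members 2-fold apart beside 10.8% of genes higher and 5.56% lower. Klf3 and Klf13 were at 50.3 and 51.1 CPM in mature cDC1, close to resting cells, and at 76.0 and 38.0 CPM in mature cDC2, 1.51-fold higher and 1.67-fold lower.

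In mature cDC1, 0 of 7 members were 2-fold higher and 2 lower, beside 14.3% and 12.9% of 6579 measured genes. In mature cDC2, 1 was higher and 1 lower, beside 14.5% and 8.79% of 6647. The median log2 ratio of the members was -0.34 in cDC1 and 0.26 in cDC2, where all measured genes had 0.04 and 0.15. Scaling to a trimmed mean of the genes (TMM) shifted all log2 ratios down by 0.10 in mature cDC1 and 0.24 in mature cDC2, which left Klf2 in mature cDC2 under 2-fold (log2 0.91). Klf10 and Klf7 in the mature gates rest on 5 to 41 UMIs, and their intervals reach close to or below 2-fold except for Klf10 in cDC1.

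**Figure D2:**
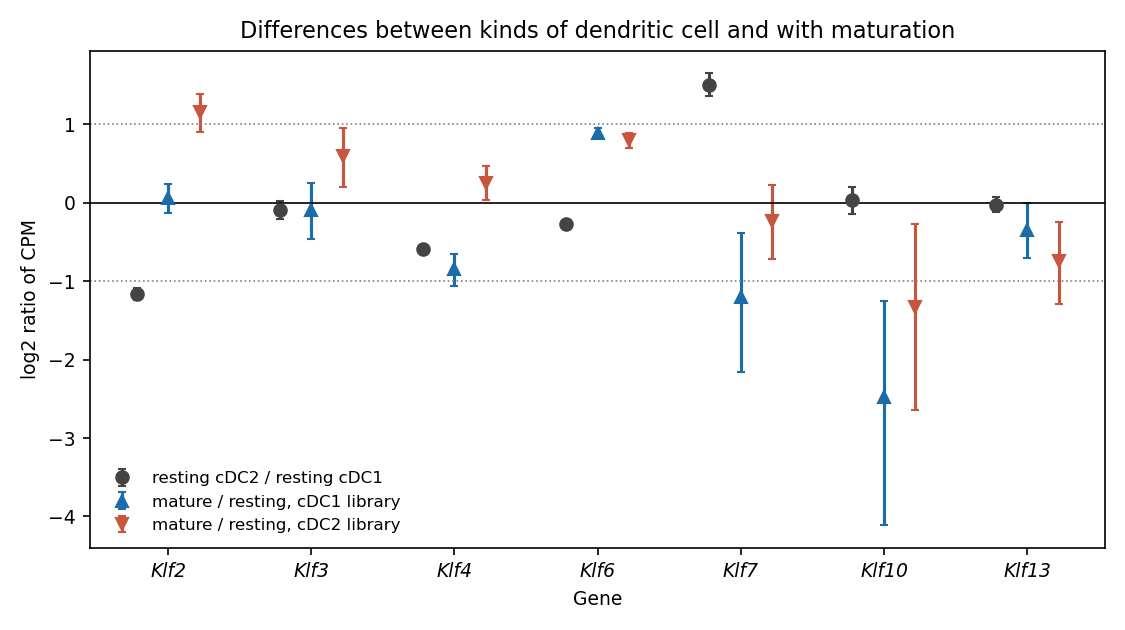
Log2 ratio of CPM for each member between resting cDC2 and resting cDC1 and between mature and resting cells of each library, with exact 95% intervals and dotted lines at 2-fold. Klf6 lies at 0.89 and 0.80 with maturation, Klf10 below -1 in both libraries, and Klf2 above 1 in the cDC2 library alone.

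Cycling cells, marked by Mki67 and Top2a, carried the members at levels close to resting cells. In the cDC1 library 0 of 7 members were 2-fold apart, beside 9.2% of genes higher and 0.207% lower, and in the cDC2 library 0 of 7, beside 7.71% and 0.51%. Klf7 in cDC1 had the largest ratio of the 14, at 27.6 against 20.1 CPM, or 1.38-fold (1.14 to 1.65). The median log2 ratio of the members was -0.04 in cDC1 and -0.0073 in cDC2, where all measured genes had 0.23 and 0.21.

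The macrophage-like gate of the cDC2 library had all 7 members at or above resting cDC2, none by 2-fold. Its 11 macrophage and monocyte markers summed to 12187 CPM, against 218 in resting cDC2, and Flt3, a growth factor receptor of the dendritic lineage, was at 19.7 against 79.9 CPM. Klf4 was at 343 CPM, 1.93-fold above resting cDC2 (1.79 to 2.08), Klf2 at 137 CPM, 1.73-fold above (1.53 to 1.95), and Klf3 at 84.1 CPM, 1.67-fold above (1.43 to 1.94). Klf6 was at 908 CPM, 1.37-fold above, and Klf13, Klf10 and Klf7 were 1.28-, 1.30- and 1.17-fold above. Thus 0 of 7 members were 2-fold apart, beside 12.3% of genes higher and 2.53% lower. TMM scaling, which lowered log2 ratios here by 0.35, put Klf7 (-0.13) and Klf13 (-0.00405) below resting cDC2.

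The Cd7 Plac8 gate, 167 cells of the cDC2 library named for 2 of its 5 markers, had the highest Klf2 of the gates with at least 50 cells. Klf2 was at 245 CPM (223 to 268) against 79.2 CPM in resting cDC2, 3.09-fold higher (2.79 to 3.42). Klf13 was at 122 against 63.6 CPM, 1.92-fold higher (1.67 to 2.20), and Klf4 at 255 against 178 CPM, 1.43-fold higher. Klf7 was at 26.8 against 57.0 CPM, 2.13-fold lower (1.61 to 2.86), and Klf6 at 482 against 662 CPM, 1.37-fold lower and the lowest Klf6 of the 8 gates. One member was 2-fold higher and 1 lower, beside 6.43% and 5.32% of genes. The same cells had Flt3 at 118 against 79.9 CPM. Their 5 plasmacytoid dendritic cell markers summed to 358 CPM, against 250 in resting cDC2, with Ly6d at 0, and their cDC2 markers to 2296 against 3973 CPM. Their heat shock genes summed to 5680 against 4396 CPM and immediate early genes to 12355 against 12350 CPM, and the part of these in the KLF values was not tested.

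The 40 cells of the nonclassical monocyte-like gate stood out by the size of the differences. Klf2 was at 720 CPM (644 to 803), 9.09-fold above resting cDC2 (8.06 to 10.2). Klf3 was at 223 CPM, 4.42-fold above, Klf13 at 281 CPM, 4.41-fold above, Klf10 at 83.9 CPM from 38 UMIs, 4.03-fold above, and Klf4 at 594 CPM, 3.34-fold above. Klf6 at 873 CPM was 1.32-fold above and Klf7 at 61.9 CPM 1.08-fold (0.718 to 1.57). So 5 of 7 members were 2-fold higher, where 24.4% of genes were higher and 7.92% lower. Thbd, which encodes thrombomodulin and is known as a KLF2 target in endothelium, was at 39.8 CPM in these cells, from 18 UMIs, and at 0.564 CPM in resting cDC2. Of the other known KLF2 targets reported here, Itgb7 was not higher, at 163 against 212 CPM. S1pr1 had 0 UMIs in these cells, with an interval up to 8.15 CPM, and was at 0.242 CPM in resting cDC2. Whether S1pr1 was higher can therefore not be read from so few UMIs. The 5 nonclassical monocyte markers of the 40 cells summed to 2642 CPM, against 533 in resting cDC2, and immediate early transcripts to 13607 against 12350 CPM. Their median depth was 8849 UMIs a cell, and Nr4a1, 1 of the 5 markers, is also an immediate early gene.

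**Figure D3:**
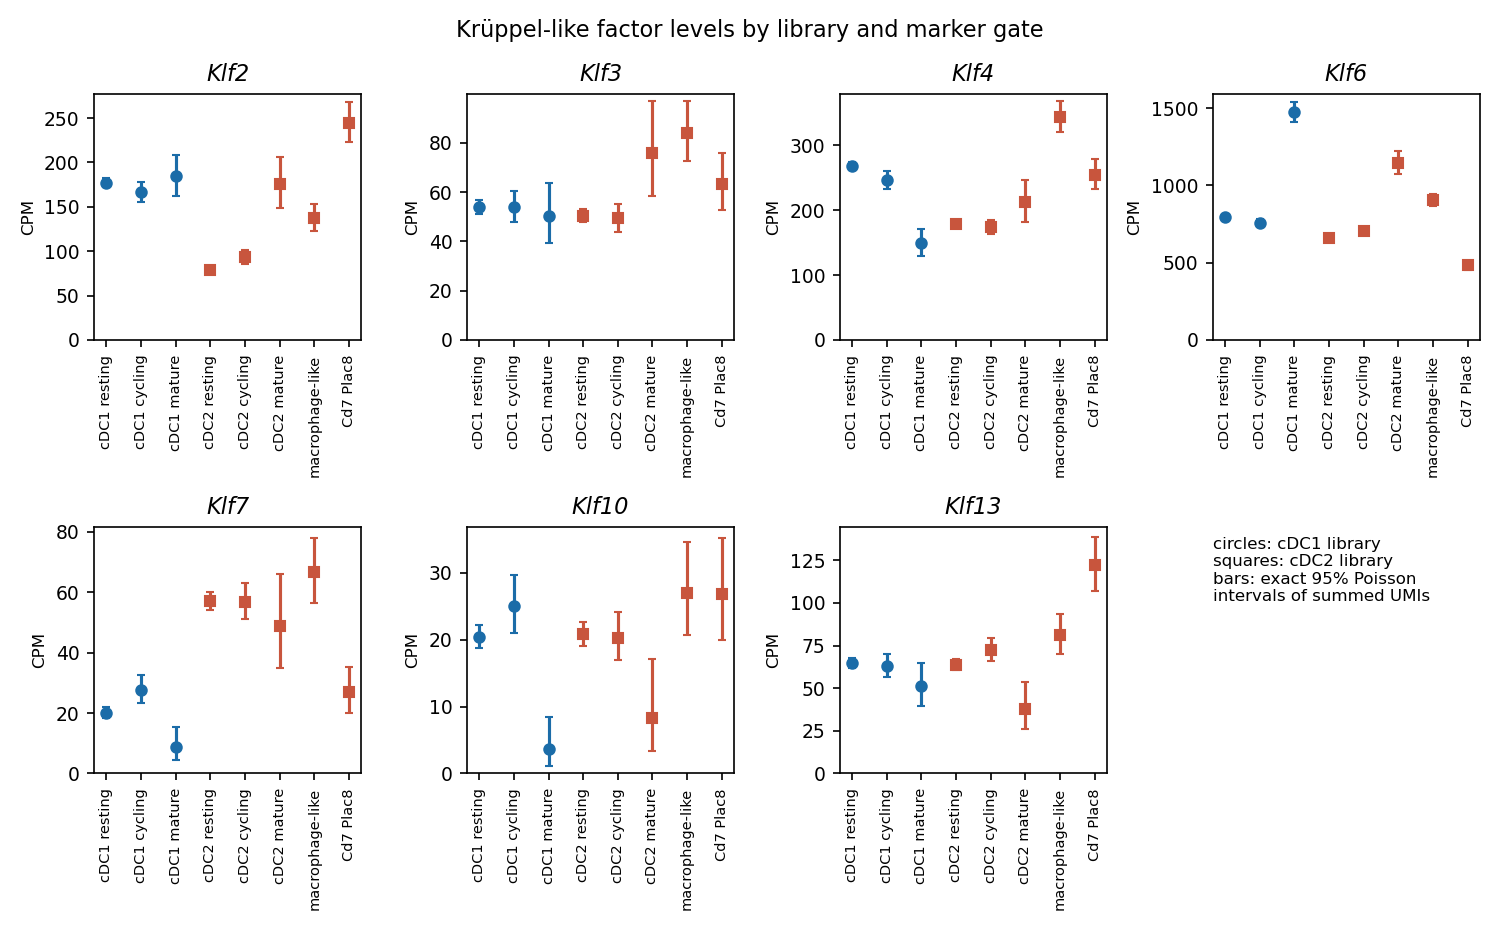
CPM of each member (1 panel each, axes from 0) in the 8 gates of at least 50 cells, circles for the cDC1 and squares for the cDC2 library, with exact 95% Poisson intervals. Klf6 peaks in both mature gates (1475 and 1149 CPM), Klf7 separates the 2 libraries outside the Cd7 Plac8 gate, and Klf2 and Klf13 peak in the Cd7 Plac8 gate (245 and 122 CPM).

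Ordered by level over these 8 gates, the members differed in how many neighbouring intervals overlapped. The intervals cover counting error only and narrow as UMIs increase. They leave out the spread between cells and between mice, so few overlaps do not make an order firm. For Klf6 all neighbours in the order had intervals that did not overlap, from 1475 CPM in mature cDC1 to 482 CPM in the Cd7 Plac8 gate, a 3.06-fold range. For Klf2, which ran from 245 CPM in the Cd7 Plac8 gate to 79.2 CPM in resting cDC2, 3 of the 7 neighbouring pairs overlapped, namely mature cDC1, resting cDC1, mature cDC2 and cycling cDC1 at 185, 177, 176 and 166 CPM. For Klf7, 5 of 7 neighbouring pairs overlapped: the macrophage-like, resting, cycling and mature gates of the cDC2 library formed a run of 66.5, 57.0, 56.7 and 48.7 CPM. It was followed, after a gap, by cycling cDC1 (27.6), the Cd7 Plac8 gate (26.8) and resting cDC1 (20.1), with mature cDC1 last at 8.76 CPM. Klf4 had 6 overlapping pairs of 7, with the macrophage-like gate apart at 343 CPM and mature cDC1 lowest at 149 CPM, and Klf13 likewise 6, with the Cd7 Plac8 gate apart at 122 CPM. Klf3 and Klf10 had no neighbours whose intervals were apart. Their ranges were 1.71-fold for Klf3, the narrowest of the 7, and 7.41-fold for Klf10.

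Across the 8 gates the members did not follow 1 pattern. On log2(CPM + 1), Pearson's r was -0.85 between Klf6 and Klf10 and -0.79 between Klf6 and Klf13, and 0.69 between Klf10 and Klf13 and 0.68 between Klf3 and Klf4. These are descriptions over 8 points, 3 of which come from 1 library and 5 from the other, and which share the resting, cycling and mature states. Among 3393 genes with at least 50 CPM in some gate, the patterns most like each member were those of Mau2, Cdc40 and Ogfr for Klf2 (r from 0.90 to 0.87) and of Cbl, Evl and Sgk1 for Klf4 (0.91 to 0.89). For Klf6 they were Anxa4, Eps15 and Hsbp1 (0.97 each), for Klf7 Itga5, Celf4 and Ccr1 (0.97 to 0.96), and for Klf3 Socs6, Itch and Insig1 (0.95 to 0.94). For Klf10 they were Alox5ap, Itgb2 and Cyth4 (0.99 each) and for Klf13 Acap2, Tln1 and Ndufs8 (0.95 to 0.94). Being the top 3 of 3393 genes over 8 points, these genes have a high r partly by selection. The r values of Klf10 lean on the mature gates, where it was at 3.65 and 8.32 CPM from 5 and 7 UMIs. With a pseudocount of 10 in place of 1, 16 of these 21 genes were named again.

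Within resting cells the members were read against single genes that mark states of these cells, setting cells with at least 2 UMIs of the marker against cells with 0. The migration receptor Ccr7 split resting cDC1 into 138 and 1847 cells. Klf6 was 1.56-fold higher in the cells with Ccr7 (1.498 to 1.63), while Klf10 was 2.15-fold lower (1.38 to 3.55), Klf7 1.89-fold lower (1.24 to 3.05) and Klf2 1.77-fold lower (1.54 to 2.04). One of 7 members was 2-fold lower, beside 4.13% of genes, and 3.33% were higher. In resting cDC2, where Ccr7 split 1040 from 650 cells, Klf10 was 2.01-fold lower (1.67 to 2.43), Klf3 and Klf13 1.60-fold lower, Klf4 1.45-fold lower and Klf6 1.09-fold higher. One of 7 was again 2-fold lower, beside 2.22% of genes, and 0.886% were higher. Klf10 was therefore lower and Klf6 higher in resting cells with Ccr7 in both libraries, as in the mature gates. Other members did not follow those gates. In cDC2, Klf2, Klf3 and Klf4 were lower in the cells with Ccr7 but higher in the mature gate. In cDC1, Klf2 was lower with Ccr7 but level in the mature gate. Ccr7 is also among the 8 markers of the mature gate, so the 2 comparisons are not independent. Immediate early transcripts were also lower in the cells with Ccr7, at 10408 against 12023 CPM in cDC1 and 11434 against 13683 CPM in cDC2, and their part in these ratios was not tested.

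Ccl17, a chemokine gene that most resting cDC2 expressed, split them into 1606 and 143 cells. Klf10 was 2.34-fold lower (1.77 to 3.05) and Klf2 1.67-fold lower (1.43 to 1.95) in the cells with Ccl17, and Klf7 1.49-fold higher (1.14 to 1.97), with 1 of 7 members 2-fold apart beside 1.7% of genes higher and 2.53% lower. In resting cDC1 Ccl17 split 1325 from 448 cells, with Klf2 1.42-fold and Klf4 1.33-fold lower and Klf6 1.27-fold higher, and 0 of 7 members 2-fold apart beside 2.08% higher and 0.5% lower. With Il12b, which encodes a subunit of IL-12 and IL-23, Klf4 was 1.76-fold lower in resting cDC1 (164 against 288 CPM, 1.62 to 1.92) and Klf6 1.29-fold higher. There 0 of 7 were 2-fold apart, beside 2.33% higher and 1.03% lower.

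Klf2 also differed with Plac8, Plet1 and Hspa1a. In resting cDC1 with Plac8 (85 cells) Klf2 was at 339 CPM, against 168 CPM in 1984 cells without, 2.02-fold higher (1.83 to 2.22), the 1 member of 7 past 2-fold beside 3.12% of genes higher and 4.3% lower. With Plet1 it was 1.63-fold lower in resting cDC1 (127 against 206 CPM) and 1.71-fold lower in resting cDC2 (49.8 against 85.3 CPM), where Klf10 was 1.88-fold lower. With Plet1 0 of 7 members were 2-fold apart in either library, beside 0.474% of genes higher and 0.736% lower in cDC1 and 0.56% and 1.52% in cDC2. With Hspa1a it was 2.20-fold higher in resting cDC1 (295 against 134 CPM, 2.07 to 2.34), 1 of 7 members beside 0.981% of genes higher and 0.0643% lower. In resting cDC2, where 134 cells had at least 2 Hspa1a UMIs, Klf2 was 1.29-fold and Klf4 1.56-fold higher and Klf10 was 2.05-fold higher (1.56 to 2.65), 1 of 7 beside 3.61% higher and 0.51% lower. In resting cDC2 with Mrc1, the mannose receptor gene, Klf7 was 1.43-fold higher (70.0 against 48.9 CPM) and Klf3 1.41-fold higher, and 0 of 7 members were 2-fold apart beside 1.36% higher and 0.328% lower. Il1rl1 in resting cDC2 (0.358% of genes higher, 0.195% lower) and Cd207 in resting cDC1 (0.295% and 0.344%) likewise left 0 of 7 members 2-fold apart. Immediate early transcripts differed along several of these splits. They were at 9429 CPM in resting cDC1 with Plac8 and 12033 CPM without. With Plet1 they were at 10626 against 12543 CPM in cDC1 and 10396 against 12712 CPM in cDC2, and with Hspa1a at 13295 against 11265 CPM in cDC1 and 15396 against 12010 CPM in cDC2. Their part in the Klf2 and Klf10 ratios was not tested.

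Immediate early transcripts, which follow signalling and also tissue digestion, set apart resting cells with high Klf2 and Klf10 in both libraries. Each library's resting cells were ranked by the share of their UMIs in 20 immediate early genes such as Fos, Jun and Egr1, a list that holds no KLF, and cut into 3 groups of nearly equal size. In resting cDC1 these genes summed to 8031, 11417 and 16583 CPM from the lowest to the highest tertile. Klf10 went along them from 12.5 over 17.4 to 32.2 CPM, 2.59-fold (2.08 to 3.24), Klf2 from 126 over 161 to 250 CPM, 1.99-fold (1.85 to 2.14), and Klf6 from 698 over 774 to 934 CPM, 1.34-fold. Klf4 stayed at 256, 285 and 263 CPM and Klf3 at 57.2, 51.1 and 52.9 CPM. One of 7 members was 2-fold higher in the highest tertile, beside 2.06% of genes, and 0.804% were lower.

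In resting cDC2, with 8599, 12118 and 16582 CPM of immediate early transcripts, 3 of 7 members were 2-fold higher in the highest than in the lowest tertile, beside 3.25% of genes, and 0.68% were lower. Klf2 went from 48.5 over 76.6 to 115 CPM, 2.36-fold (2.10 to 2.66), Klf10 from 13.7 over 19.9 to 29.4 CPM, 2.15-fold (1.71 to 2.70), and Klf4 from 120 over 172 to 246 CPM, 2.06-fold (1.91 to 2.22). Klf13 was 1.69-fold and Klf6 1.28-fold higher, and Klf7 was level at 54.8, 61.3 and 54.9 CPM. The median log2 ratio of the members between the outer tertiles was 0.76, against 0.10 for all measured genes; in resting cDC1 it was 0.42 against 0.05. Near the tertile borders, within 5% of a border, lay 456 resting cDC1 and 477 resting cDC2, so the tertiles are ranges and not cell types. From the lowest to the highest tertile the heat shock genes summed to 4925, 4971 and 6791 CPM in resting cDC1 and to 4485, 4105 and 4606 CPM in resting cDC2. The median UMIs a cell went from 13184 over 12682 to 11851 in cDC1 and from 13141 over 12617 to 11891 in cDC2. The part of heat shock, depth and digestion in these values was not tested.

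Setting resting cDC2 against resting cDC1 tertile by tertile kept Klf2 and Klf7 apart. Klf2 was 2.59-, 2.10- and 2.18-fold lower in cDC2 from the lowest to the highest tertile, and Klf7 3.17-, 3.43- and 2.14-fold higher. Klf4 was 2.14-fold lower in cDC2 in the lowest tertile (1.99 to 2.302), 1.65-fold lower in the middle and 1.07-fold lower in the highest (1.01 to 1.14). The lowest tertile thus had 1 member higher and 2 lower, beside 9.4% and 8.92% of genes. The middle and highest tertiles had 1 higher and 1 lower each, beside 9.25% and 6.7% and beside 8.73% and 6.6%.

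**Figure D4:**
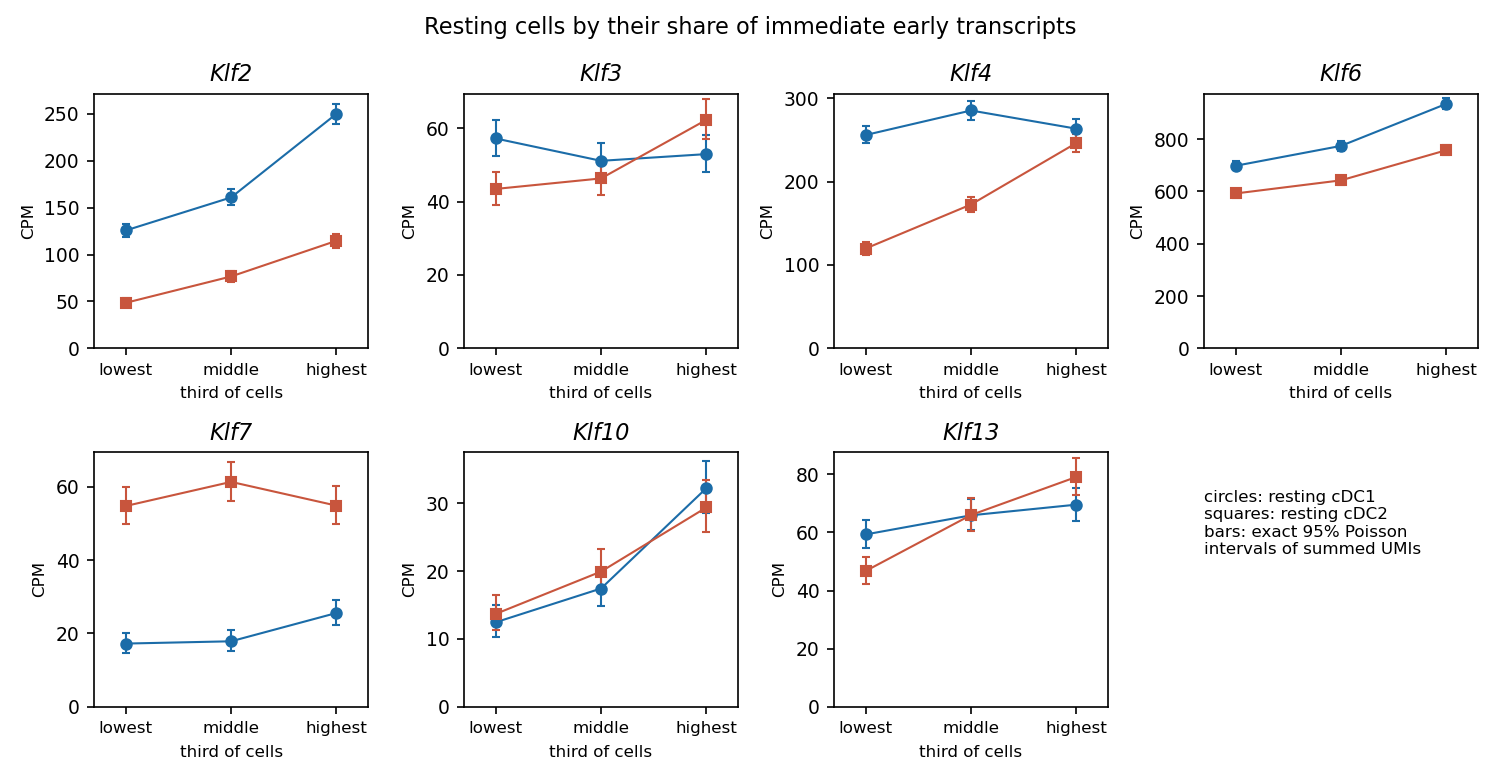
CPM of each member in resting cDC1 (circles) and resting cDC2 (squares) by tertile of the share of immediate early transcripts, with exact 95% Poisson intervals and axes from 0. Klf10 and Klf2 are higher in the highest than in the lowest tertile in both kinds of cell, Klf4 in cDC2 (246 against 120 CPM) but hardly in cDC1 (263 against 256 CPM), and Klf7 keeps the 2 kinds apart in every tertile.

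Counted by cells, after each cell had been thinned to 2000 UMIs, Klf6 was found in 69.7% of resting cDC1 (67.7 to 71.7) and 62.6% of resting cDC2 (60.4 to 64.8). Klf4 was found in 33.9% and 26.0%, Klf2 in 25.9% (24.0 to 27.8) and 13% (11.5 to 14.6), and Klf7 in 3% (2.31 to 3.82) and 9.89% (8.59 to 11.3). Klf13 was found in 11.3% and 11.2%, Klf3 in 10.5% and 9.79%, and Klf10 in 3.29% and 3.95%. For comparison, Xcr1 was found in 0.684% of resting cDC2 and Sirpa in 0.143% of resting cDC1 at the same depth. Both genes are gate markers, so the choice of cells lowered these shares. They therefore cannot serve as a background for the members. Unthinned, Xcr1 was found in 3.79% of resting cDC2 and Sirpa in 0.760% of resting cDC1. Thinning left out 4 of 2104 and 2 of 1902 cells, whose medians had been 12547 and 12568 UMIs. Without thinning, Klf2 was found in 62.2% and 43.1%, Klf4 in 77.0% and 68.5%, Klf6 in 96.0% and 94.8% and Klf7 in 19.0% and 38.3%. In mature cells the thinned share of Klf6 was 87.9% in cDC1 (79.8 to 93.6) and 79.4% in cDC2 (67.9 to 88.3). At this thinned depth Klf10 was found in 0 of 68 mature cDC2, with an exact 95% interval up to 5.28% of cells. Klf7 was found in 0 of 99 mature cDC1, with an interval up to 3.66%. A floor of 3 cells would be 4.41% and 3.03% of these gates. Unthinned, Klf10 was found in 7 of those 68 cells (10.3%) and Klf7 in 5 of those 99 (5.05%).

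Between resting cells all members but Klf13 in cDC1 were more unevenly spread than most genes of like level. At 5000 UMIs a cell the variance of Klf2 over its mean (the Fano factor, 1 for pure counting) was 2.73 in resting cDC1 and 2.01 in resting cDC2, above 97.4% and 97.6% of genes of like mean. For Klf4 it was 2.47 and 2.02, above 93.3% and 96.7%, and for Klf6 3.11 and 2.46, above 85.7% and 79.1%. Klf7 lay above 95.3% and 93.2% of genes of like mean, Klf10 above 93.3% and 82.4% and Klf3 above 89.4% and 90.3%. Klf13 had the lowest value in resting cDC1, 1.08, and 1.17 in resting cDC2, where genes of like mean had a median of 1.09 in both. Cell by cell, the correlation of Klf4 with the immediate early share was 0.28 over 1902 resting cDC2 and 0.02 over 2104 resting cDC1, and that of Klf2 was 0.24 and 0.23. Klf2 and Klf4 correlated with each other at 0.19 in resting cDC2 and 0.06 in resting cDC1. Such values in sparse counts of cells that share 1 library and differ in depth are weak and are given as descriptions.

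Of the 19 other genes of the KLF and SP family, 4 reached 10 CPM in either library: Klf9, Klf16, Sp1 and Sp3. Klf9 was at 24.1 CPM in the cDC2 and 8.87 CPM in the cDC1 library, 2.72-fold higher, and in resting cells at 22.9 and 6.75 CPM, 3.39-fold higher, so that it went with Klf7 in this comparison. The other 3 differed by at most 1.23-fold between the libraries, at 18.6 to 28.1 CPM. The 4 genes had a median log2 ratio of 0.25, against 0.05 over all measured genes. Of all measured genes 7.79% were 2-fold higher and 5.51% lower in the cDC2 library, and 8.48% and 6.94% in resting cDC2. Klf14 and Klf17 had 0 UMIs in both libraries, and Klf1 had 0 and 3. In the macrophage-like gate 3 of the 6 family genes measured there were 2-fold higher than in resting cDC2, beside 12.3% of 6762 measured genes. They were Klf9 (50.2 against 22.9 CPM), Sp1 (42.9 against 18.7 CPM) and Sp4 (16.7 against 5.16 CPM). Sp2 and Sp4 passed the level of 10 CPM only through the macrophage-like gate, so that filter shaped the count. TMM scaling, which lowered log2 ratios here by 0.35, would leave Klf9 and Sp1 under 2-fold.

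Of 13 cofactor genes of the KLFs (CtBP, SIN3 and histone deacetylase genes, acetyltransferases and ubiquitin ligases), 12 were measured. Between the libraries 0 of the 12 were 2-fold apart, beside 7.79% of all genes higher in cDC2 and 5.51% lower. The median log2 ratio of the list was 0.01. Sin3b, Crebbp and Ctbp1 were the most abundant, at 101.2, 70.2 and 57.3 CPM in the cDC1 and 109, 83.0 and 65.3 CPM in the cDC2 library. With maturation Smurf1, a ubiquitin ligase gene, was higher in both libraries, at 45.2 against 12.8 CPM in cDC1 (3.53-fold) and 48.7 against 20.8 CPM in cDC2 (2.34-fold). Ctbp2 and Fbxw7 were lower in mature cDC2, 2.27- and 2.22-fold. Of all measured genes 14.3% were 2-fold higher and 12.9% lower in mature cDC1, and 14.5% and 8.79% in mature cDC2. The medians of the list were 0.11 and 0.24, against 0.04 and 0.15 for all genes.

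ERK5 and the MEF2 factors are known to act upstream of Klf2 and Klf4. Of these 6 genes 3 were measured between the libraries, Mef2a, Mef2c and Mef2d, with a median log2 ratio of -0.11. The number 2-fold apart was 0, beside 7.79% of all genes higher in the cDC2 library and 5.51% lower. Mef2c was at 172 and 159 CPM. In mature cells Mef2c was lower in both libraries. It was at 17.5 against 175 CPM in cDC1, 10.0-fold, and at 65.3 against 143 CPM in cDC2, 2.18-fold. Mef2a did not fall, at 136 against 122 CPM in mature cDC1 and 129 against 95.1 CPM in mature cDC2. Mef2d was at 46.0 against 62.2 CPM and at 67.7 against 60.5 CPM. Klf2 was at 185 and 176 CPM in the same mature gates. Among all genes 14.3% were 2-fold higher and 12.9% lower in mature cDC1, and 14.5% and 8.79% in mature cDC2. A link of these genes to Klf2 was not tested. Of the trafficking genes known as KLF2 targets that are reported here (S1pr1, Itgb7 and Thbd), Itgb7 alone was measured in the libraries, at 291 CPM in cDC1 and 217 CPM in cDC2. It was 5.19-fold lower in mature cDC1 (58.4 CPM) and 2.71-fold lower in mature cDC2 (78.4 CPM). S1pr1 was at 0.111 and 0.242 CPM in resting cells.

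Of 12 genes of the TGF-beta response, the pathway KLF10 is named for, 11 were measured. Pmepa1 was 2-fold lower in the cDC2 library, at 95.3 against 225 CPM, beside 7.79% of all genes higher and 5.51% lower. The list's median log2 ratio was 0.15. In mature cDC1 Tgfbr1 was 2.18-fold higher and Tgfb1 2.02-fold lower, and in mature cDC2 Tgfb1 was 2.84-fold and Tgfbr2 2.21-fold lower. The shares of all genes past 2-fold were 14.3% higher and 12.9% lower in mature cDC1, and 14.5% and 8.79% in mature cDC2. Of 9 genes linked to type 2 responses of cDC2, the setting in which KLF4 is known, 8 were measured. In the cDC2 library 3 were higher: Cd209a (20.6-fold), Mgl2 (14.3-fold) and the transcription factor gene Irf4 (10.7-fold). This stands beside 7.79% of all genes higher and 5.51% lower, and the list had a median log2 ratio of 0.59. Cd209a and Mgl2 are also among the markers that defined the cDC2 gate, so their direction in the gates was fixed by the choice of cells. Klf4 itself was lower in the cDC2 library, at 201 against 258 CPM. Lgals3, a galectin gene that KLF3 is known to repress, was at 816 and 765 CPM, with Klf3 at 54.3 and 57.1 CPM. In mature cDC2 Lgals3 was 2.16-fold lower and Klf3 1.51-fold higher, and in mature cDC1 Lgals3 was 1.33-fold lower with Klf3 at 0.936 of the resting level.

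Immediate early and heat shock genes also differed between the sorts. Of 20 immediate early genes 19 were measured and 3 were 2-fold higher in the cDC2 library, Egr2, Rhob and Socs3, with a median log2 ratio of 0.23, beside 7.79% of all genes higher and 5.51% lower. In mature cDC1 6 of 18 were lower, among them Fos, Jun and Egr1, with a median of -0.58, beside 12.9% of all genes lower and 14.3% higher. In mature cDC2 Rhob was higher and Egr1, Egr2 and Socs3 were lower, with a median of -0.34, beside 14.5% of all genes higher and 8.79% lower. Of 9 heat shock genes, all measured, 3 were lower in the cDC2 library, Hspa1a, Hspa1b and Hsph1, with a median of -0.49. In mature cDC2 Hspa1a and Hspa1b were higher and in mature cDC1 Hsph1 was lower, with medians of 0.48 and 0.01. Their part in the differences between gates was not tested.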

How the data were processed

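Single-cell RNA libraries of 2 sorted dendritic cell kinds, 1 library each, were read from the authors' deposited matrices, which hold whole-number UMI counts per gene and barcode. Per the submitters' processing notes Cell Ranger 3.2, Seurat and build mm10 were used; the file header gives software version 3.0.2, and no source used here states the steps between. Barcodes with at least 500 genes, 1000 UMIs and at most 10% mitochondrial counts were kept, removing 365 of 2939 and 210 of 3045. No doublet caller was run; 16 and 64 kept cells had at least 4 markers of both kinds, and leaving them out is among the alternatives.

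Cells were gated by the number of markers with a UMI, in the order B cell, neutrophil, T and NK cell, fibroblast, endothelium and epithelium (3 markers each), nonclassical monocyte (4 of 5), macrophage or monocyte (5 of 11), mature (5 of 8), cycling (5 of 10) and Cd7 Plac8 (4 of 5). Remaining cells with 4 or more cDC1 or cDC2 markers were resting cells of that kind. The planned rule, a summed share of the markers, was replaced before any KLF value was computed because Ccl22 dominated the sum. Counts were summed per gate and given as CPM with exact Poisson intervals. Ratios carry exact conditional binomial intervals. The level for a measured gene was 10 CPM on either side, and ratios of genes at 0 used a floor of 3 counts. The rule for named genes took all 7 members, up to 3 genes of highest CPM and 3 of largest ratio from each list, and the 3 genes of most like pattern per member; genes past 2-fold in a list were named too. A gene of the trafficking list is not reported here. Each list and the members were chosen with earlier results of these data known. The calculation was tested on simulated data. edgeR 4.0.16 and DESeq2 1.42.0 (R 4.3.3) supplied scaling factors only, and Python 3.11.15, numpy 2.4.6, scipy 1.17.1 and pandas 2.3.3 the rest.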

Additional observations from a re-analysis of the deposited data

How the results depend on the processing

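No paired analysis was possible because each sort has 1 library. Of 112 counts of members 2-fold apart under an alternative, 92 stayed within 1.5 times the reported count and 20 did not, and of 127 log2 ratios of the members past 2-fold 115 stayed past it and 0 changed sign. For mature cDC1 (2 reported) the count was 1 with a mitochondrial limit of 5% and 1 with gate cuts 1.5 times lower, Klf10 remaining in both, 0 with genes measured at 50 CPM and 4 at 1.5-fold. For mature cDC2 (2 reported) it was 1 under TMM and 1 under DESeq2 size factors, 0 with lower gate cuts, 1 at 50 CPM, 5 at 1.5-fold and 1 against resting cells of the lowest immediate early tertile. For the Cd7 Plac8 gate (2 reported) it was 1 as a mean over cells, 1 with lower cuts and 4 against the lowest tertile. For the macrophage-like gate (0 reported) it was 1 with cuts 1.5 times higher (Klf4), 3 at 1.5-fold and 2 against the lowest tertile, and for cycling cDC1 (0 reported) 1 against the lowest tertile (Klf10). Between the libraries (1 reported) it was 2 at 1.5-fold and 2 in conventional dendritic cells without resting cells of the other kind, and between resting cells (2 reported) 1 among cells with 0 Hspa1a UMIs, an alternative chosen after seeing the data, as were leaving out cells with markers of both kinds and both restrictions to conventional dendritic cells. Fewer genes are tested at 50 CPM and more differences pass 1.5-fold by construction; the cause of the other changes was not tested. The log2 ratio of Klf7 between resting cells ranged from 1.45 to 1.67, that of Klf2 from -1.37 to -0.82, that of Klf10 in mature cDC1 from -4.32 to -1.77 (past 2-fold in 14 of 14 settings) and in mature cDC2 from -2.54 to -0.31 (12 of 14). That of Klf7 ranged from -1.84 to -0.70 in mature cDC1 (11 of 14) and from -1.45 to -0.66 in the Cd7 Plac8 gate (12 of 14), and that of Klf2 in mature cDC2 from 0.82 to 1.86 (10 of 14). Depth limits Klf10 and Klf7 in the mature gates, which rest on 5 to 41 UMIs.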

Other observations

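The gates on B cell and neutrophil markers of the cDC2 library enter no comparison and stood above its resting cDC2 in Klf2. The first (39 cells, 337176 UMIs, median depth 3797) had Klf2 at 534 CPM (459 to 618), Klf6 at 587 CPM, Klf4 at 338 CPM and Klf13 at 89.0 CPM. The second (33 cells, 266351 UMIs, median depth 2835) had Klf6 at 867 CPM, Klf2 at 409 CPM (336 to 494), Klf3 at 146 CPM, Klf13 at 128 CPM and Klf7 at 90.1 CPM from 24 UMIs. The cDC2 markers summed to 2634 CPM in the first and 2801 CPM in the second of these gates, beside 3973 CPM in resting cDC2.

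In the cDC1 library 41 cells that met no gate had Klf6 at 1275 CPM, between the 798 CPM of resting and the 1475 CPM of mature cDC1, and Klf2 at 230 CPM. In the cDC2 library 88 such cells had Klf6 at 717 CPM and Klf2 at 179 CPM, above the 79.2 CPM of resting cDC2.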
